A study of Homo sapiens with 39 samples.

Results

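The genes described here are 41 genes of the primary cilium and of hedgehog signalling, among 23710 genes in each deposited table. They were chosen by name, as intraflagellar transport, BBSome, transition zone, ciliary transport and hedgehog genes listed in all 5 comparisons of the study. By role they comprise 10 genes of the IFT-B complex, 2 of the IFT-A complex, 9 of the BBSome and its chaperonins, 11 of the transition zone, 4 of ciliary motors and cargo release, and 5 of the hedgehog pathway. The rule uses names and no measured value.

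The study lowered or raised TRIM37, which encodes a ubiquitin ligase of the RING type, in a pair of human cell lines and sequenced RNA from 39 libraries. Loss was studied in hTERT-RPE1, a telomerase-immortalised retinal pigment epithelial line, with 9 TRIM37 knockout and 9 wild type libraries. CHP-134, a neuroblastoma line, contributed 3 wild type libraries and 3 libraries each of TRIM37 mutant clones 1 and 2, which the labels call partial knockouts and which share the wild type. Gain was studied in TetOn clones 4 and 5, in which TRIM37 is inducible in RPE1, with 3 libraries after 24 h of 1 µM doxycycline and 3 without it per clone. No other library received doxycycline. As no line without the inducible TRIM37 was treated, effects of doxycycline and of TRIM37 cannot be told apart in the TetOn comparisons. The labels split the RPE1 wild type into 3 sets of 3. The labels name no clone for the RPE1 knockout, and each CHP-134 mutant is 1 clone, so differences between lines and effects of TRIM37 cannot be told apart in the loss comparisons. The labels do not say that replicates were separate cultures, so the q values may measure technical spread only.

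The primary cilium is a single sensory projection built on the mother centriole. IFT-B and the kinesin-2 motor carry cargo towards its tip, IFT-A and cytoplasmic dynein 2 carry it back, the BBSome moves membrane proteins, and the transition zone gates the base. Without hedgehog ligand the receptor PTCH1 holds Smoothened (SMO) inactive and GLI3 is processed to a repressor; with ligand SMO enters the cilium and GLI factors switch on targets that include GLI1, PTCH1 and HHIP.

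Promoters of 36 of the 41 genes were found in the RefSeq table (GRCh38.p14), and the 250 bases before each start were searched on both strands for 2 motifs. BBS9, TCTN2, TMEM67, GLI1 and GLI3 were not searched. The first motif, GTTGCC or its complement GGCAAC, is a half-site of the X-box bound by RFX factors, known regulators of ciliary genes. It was present for 12 of the 36 genes (33.3%) and for 12.3% of all 27305 genes in the table. The second, GACCACCCA or TGGGTGGTC, is a GLI binding site, and PTCH1 was the 1 member of 36 with a match (2.78%), beside 0.253% of all genes in the table. Of the 12 genes with the half-site, 9 passed the test in at least 1 comparison of TRIM37 loss, as did 13 of the 24 without it and 74.7% of the 11054 genes usable in all 3. A match is a description of letters and not a bound site. PTCH1 is also among the 12 genes with the half-site, which its window below holds in lower case beside the capitalised GLI site. The windows shown next, 5′ to 3′ on the gene's strand with the motif in capitals, belong to the gene that passed in all 3 comparisons of loss (IFT122), a gene with lower levels in both CHP-134 clones (TTC8), 4 further genes that passed in at least 1 of them, and the receptor gene with the GLI site.
IFT122, chr3:129440188-129440223, plus strand: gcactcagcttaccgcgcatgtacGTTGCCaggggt
TTC8, chr14:88824593-88824646, plus strand: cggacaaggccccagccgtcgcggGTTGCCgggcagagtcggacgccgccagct
BBS10, chr12:76348607-76348660, minus strand: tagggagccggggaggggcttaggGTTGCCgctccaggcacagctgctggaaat
B9D2, chr19:41364150-41364181, minus strand: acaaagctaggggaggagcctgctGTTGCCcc
MKS1, chr17:58219260-58219313, minus strand: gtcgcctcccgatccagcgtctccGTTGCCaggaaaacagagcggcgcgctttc
DYNC2H1, chr11:103109351-103109404, plus strand: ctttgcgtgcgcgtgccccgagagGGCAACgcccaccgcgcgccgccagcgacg
PTCH1, chr9:95509406-95509462, minus strand: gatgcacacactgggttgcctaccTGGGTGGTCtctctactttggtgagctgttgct

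For each comparison the files list the mean count, the log2 fold change, the standard error (SE) of that change and an adjusted p-value, q. They hold no value per library, so depth per library is unknown. Summed over genes, the mean counts came to 36605941 in the RPE1 knockout table and between 23601173 and 30769958 in the other 4. Of the neuroblastoma markers, MYCN stood at 1714 and 1514 CPM and CHGA at 417 and 517 in the CHP-134 clone 1 and clone 2 tables, where CPM is the mean count per 1000000 summed mean counts. The catecholamine synthesis genes among these markers were low there, TH at 0.24 and 0.231, DBH at 0.181 and 0.298 and DDC at 1.81 and 1.95 CPM. RPE1 tables held KRT8, KRT18, MITF and OTX2. The pigment epithelium markers RPE65, RLBP1 and TYR were at most 0.0864 CPM there, PMEL, TYRP1 and DCT at most 0.855, and TTR was at 0. BEST1 (0.0331 to 0.149 CPM) and SERPINF1 (0.0894 to 0.272) were lower in RPE1 than in CHP-134 (1.92 and 1.35, 10.9 and 12.3). Of the fibroblast and Schwann cell markers, PDGFRB (37.3 to 116 CPM) and COL1A1 (10.8 to 63.7) led in RPE1. DCN, LUM and S100B were at most 0.763 CPM there and SOX10 was at 0. The 14 motile cilium markers found summed to 10.4 to 13.8 CPM in RPE1 and 16.4 to 18.1 in CHP-134. FOXJ1, the master regulator of motile cilia, was at most 0.078 CPM in any table, whereas CCNO (5.72 to 6.74) and DNAH5 (2.03 to 3.66) led the list in RPE1 and CCDC40 (12.7 and 14.4) in CHP-134.

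In the authors' deposited tables the log2 fold change of TRIM37 was -1.95 ± 0.0461 (SE) with knockout, and -1.66 ± 0.0337 and -1.75 ± 0.0416 in the neuroblastoma clones. Induction gave 3.19 ± 0.0441 (TetOn clone 4) and 2.64 ± 0.0419 (TetOn clone 5), also from the authors' deposited tables. The files do not state which group is the numerator, so the direction of each table was read from the sign of this gene, which is then no independent check of the labels. All 41 cilium and hedgehog genes had a usable status in all 5 tables.

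When TRIM37 was lost, cilium and hedgehog genes moved in both directions and by modest amounts. In the RPE1 knockout 15 of the 41 genes passed the authors' q under 0.05, 8 up and 7 down, which is 36.6% beside 53.6% of all 13002 usable genes (26.6% up, 26.9% down). CHP-134 clone 1 had 6, 2 up and 4 down, or 14.6% beside 18.7% of 12791 genes (9.6% up, 9.07% down). Clone 2 had 17, 11 up and 6 down, or 41.5% beside 46.2% of 12771 genes (22% up, 24.2% down). None of the 3 overall shares exceeded its background. The median log2 fold change of the members was 0.00349 in the knockout, -0.0315 in clone 1 and 0.0329 in clone 2, beside -0.00219, -0.00684 and -0.0124 over all usable genes. Of the 41 genes, 24 passed in at least 1 of these comparisons, beside 74.7% of all genes, and 17 in none. With the statistics rescaled to their central spread, 2 members still passed in the knockout (TCTN1 and TCTN2), 0 in clone 1 and 2 in clone 2 (TTC8 and AHI1). No share of all genes is given for rescaled counts, here or below, so they are not set beside a background.

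**Figure D1:**
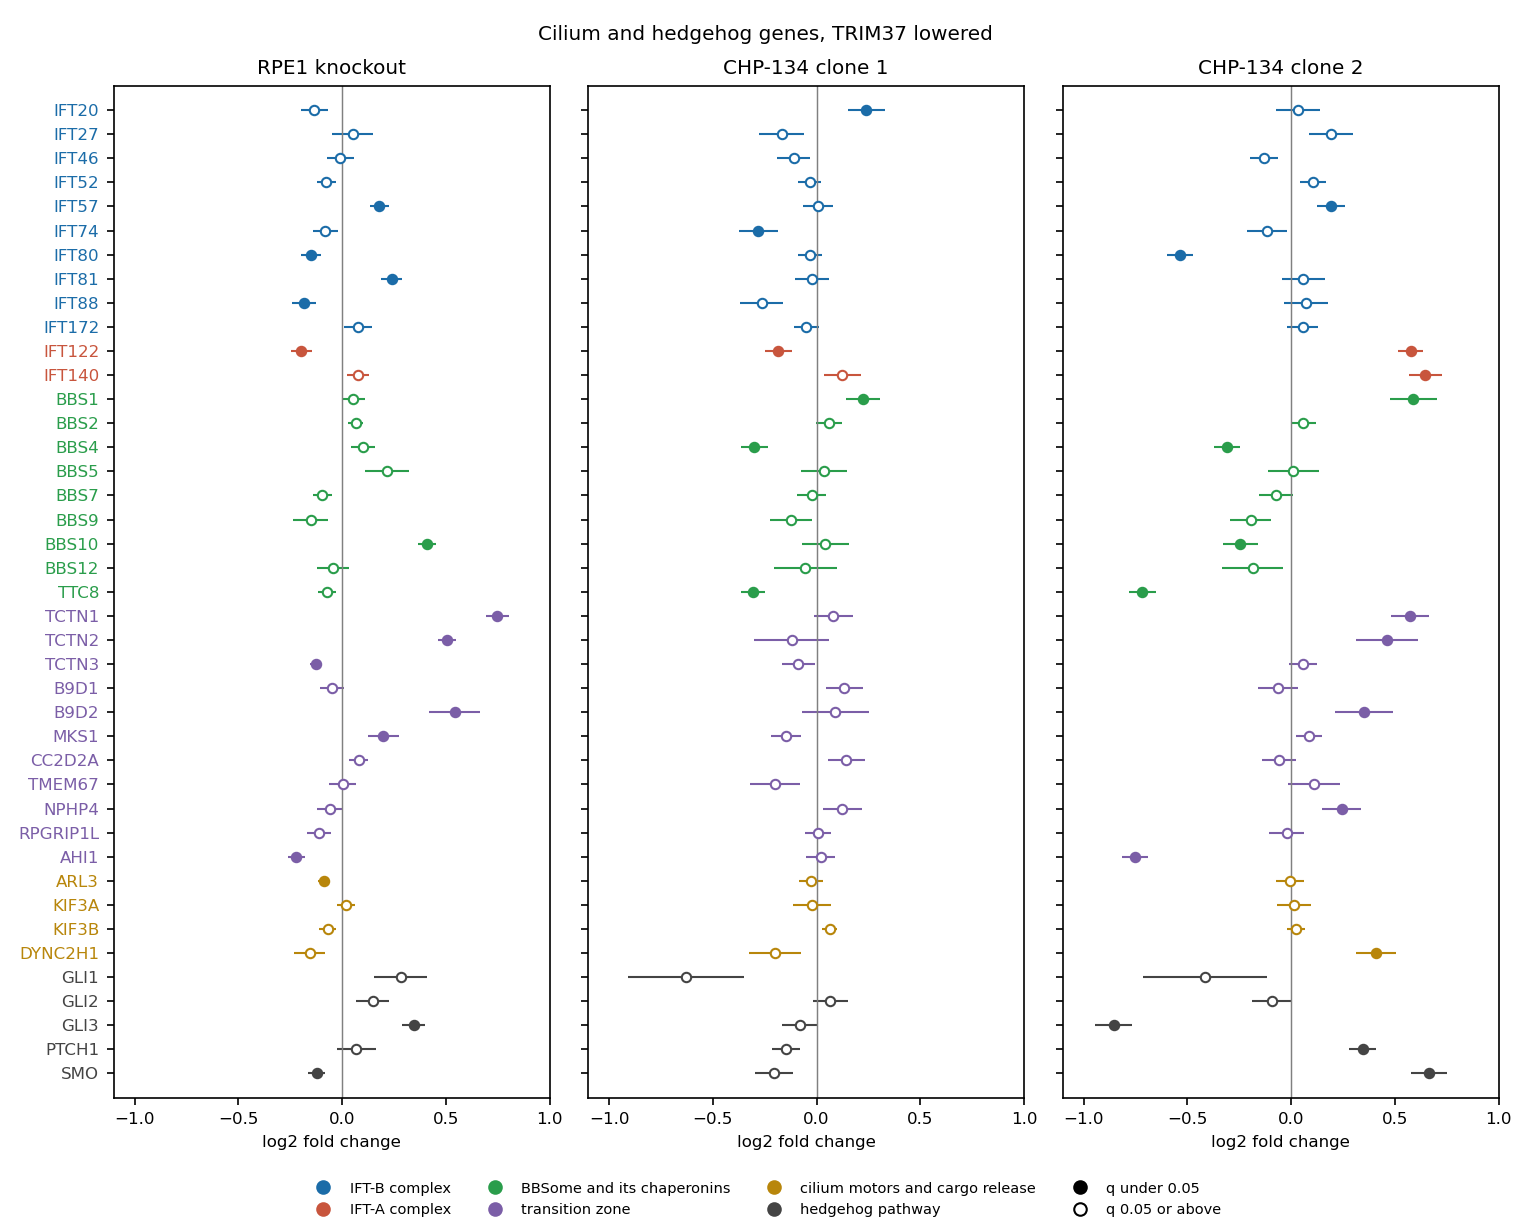
Log2 fold change (points, horizontal axis) with 1 SE (bars) of the 41 genes in the RPE1 knockout and CHP-134 clones 1 and 2, from the authors' deposited tables, coloured by role and filled where q was under 0.05. The spread is widest in clone 2, from -0.85 for GLI3 to 0.66 for SMO, and IFT122 is filled in all 3 panels.

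Among the IFT-B genes, which encode the anterograde train, 4 of 10 passed in the knockout, 2 in clone 1 and 2 in clone 2. Of all usable genes, 53.6%, 18.7% and 46.2% passed in these comparisons. In the RPE1 knockout IFT57 (0.18, SE 0.0453, q = 0.000219) and IFT81 (0.24, SE 0.0509, q = 9.24e-06) rose in the authors' deposited table. IFT88, a core subunit needed for cilium assembly, fell by 0.18 (SE 0.0585, q = 0.00383) and IFT80 by 0.15 (SE 0.0471, q = 0.00338) in the authors' deposited table. The largest of these 4 changes, that of IFT81, was 18%. In CHP-134 clone 1 IFT20, which also serves at the Golgi, rose by 0.24 (SE 0.0903, q = 0.044), and IFT74 fell by 0.28 (SE 0.0933, q = 0.0192) in the authors' deposited table. IFT20 shares 11.2% of its exonic bases with TMEM97 on the opposite strand (GENCODE release 29), and reads of the pair cannot be told apart as the strand setting of the counting is not given. The same limit holds for the 6.68% that IFT74 shares with PLAA. In clone 1 PLAA had a mean count of 2620, beside 420 for IFT74. Clone 2 had a rise of IFT57 (0.19, SE 0.0672, q = 0.0131) and a fall of IFT80 (-0.53, SE 0.063, q = 7.59e-16) in the authors' deposited table. IFT80 shares 8.46% of its exonic bases with SMC4 on the opposite strand. SMC4 had mean counts of 14100, 21700 and 18400 in the knockout, clone 1 and clone 2, beside 2390, 2530 and 2300 for IFT80. Reads from the shared bases of this pair cannot be told apart either. IFT27, IFT46, IFT52 and IFT172 passed in none of the 3 comparisons.

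The IFT-A genes included the 1 member of 41 that passed in all 3 comparisons of loss. No share of all genes passing in all 3 is given, so this count is not set beside a background. IFT122, a core subunit of the retrograde complex, fell by 0.20 (SE 0.0502, q = 0.000281) in the RPE1 knockout and by 0.18 (SE 0.066, q = 0.0323) in CHP-134 clone 1 in the authors' deposited tables. In clone 2 it rose by 0.58 (SE 0.06, q = 3.28e-20) in the authors' deposited table, so its direction was not shared. IFT140, the other IFT-A gene, rose in clone 2 (0.65, SE 0.08, q = 1.91e-14), with 0.08 in the knockout and 0.12 in clone 1, q = 0.205 and 0.367, in the authors' deposited tables.

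Of the 9 BBSome genes, 3 passed in CHP-134 clone 1, 4 in clone 2 and 1 in the RPE1 knockout. These are 33.3%, 44.4% and 11.1%, beside 18.7%, 46.2% and 53.6% of all usable genes. TTC8, a BBSome subunit also called BBS8, fell by 0.31 (SE 0.0585, q = 5.18e-06) in clone 1 and by 0.72 (SE 0.067, q = 6.99e-25) in clone 2, per the authors' deposited tables. BBS4, which links the BBSome to centriolar satellites, fell by 0.30 ± 0.0641 (SE) in clone 1 and by 0.31 ± 0.0625 in clone 2, per the authors' deposited tables. BBS1, which carries the contact with the GTPase ARL6, rose by 0.22 (SE 0.0824) and 0.59 (SE 0.114) in clones 1 and 2 in the authors' deposited tables. BBS1 shares 12.4% of its exonic bases with ZDHHC24 on the opposite strand. In the RPE1 knockout these 3 genes had values of -0.07, 0.10 and 0.05, and none passed in the authors' deposited table. BBS10, a chaperonin-like protein that assembles the BBSome, rose by 0.41 (SE 0.044) in the knockout and fell by 0.24 (SE 0.0848, q = 0.0112) in clone 2, per the authors' deposited tables. BBS2, BBS5, BBS7, BBS9 and BBS12 passed in none of the 3.

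Transition zone genes held the largest change of any member in the knockout. TCTN1, of the tectonic family, rose by 0.75 (SE 0.0554, q = 2.08e-40) there, or 67.9%, and by 0.57 (SE 0.0929, q = 9.37e-09) in clone 2, per the authors' deposited tables. TCTN2 rose by 0.51 (SE 0.0448) and 0.46 (SE 0.149) in the same comparisons in the authors' deposited tables. TCTN3 fell in the knockout, with a value of -0.13 and an SE of 0.0283 (q = 2.35e-05), per the authors' deposited table. B9D2, a subunit of the B9 module, rose by 0.54 (SE 0.124) in the knockout and 0.35 (SE 0.141, q = 0.0309) in clone 2, per the authors' deposited tables, at mean counts of 164 and 130. MKS1 rose in the knockout (0.20, SE 0.0743, q = 0.0165) and NPHP4 in clone 2 (0.24, SE 0.0939, q = 0.0227) in the authors' deposited tables. AHI1, a Joubert syndrome gene, fell by 0.22 (SE 0.0416, q = 5.36e-07) in the knockout and by 0.75 (SE 0.0636, q = 3.18e-30) in clone 2, per the authors' deposited tables. B9D1, CC2D2A, TMEM67 and RPGRIP1L passed in none of the 3. In clone 1, 0 of the 11 transition zone genes passed the authors' DESeq2 q, beside 18.7% of all usable genes, the smallest q being 0.143. At an unadjusted p under 0.05, 1 passed, beside 30.3% of all genes.

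Of the 4 motor and cargo genes, 1 passed in the knockout, 0 in clone 1 (0 also at an unadjusted p under 0.05) and 1 in clone 2. The shares of all usable genes that passed q were 53.6%, 18.7% and 46.2%. ARL3, the GTPase that releases lipidated cargo in the cilium, fell by 0.09 (SE 0.0285, q = 0.00407) in the knockout in the authors' deposited table. DYNC2H1, the heavy chain of the retrograde motor, rose by 0.41 (SE 0.097, q = 0.000132) in clone 2 in the authors' deposited table. Its values in the knockout and clone 1 were -0.16 and -0.20, with q = 0.063 and 0.271 in the authors' deposited tables. The kinesin-2 genes KIF3A and KIF3B passed in none of the 3.

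Chromosomal position went with several of these values. In the RPE1 knockout the median log2 fold change of the 590 chromosome 12 genes whose mean count reached 100 was 0.51. All 5 members on that chromosome were positive: TCTN1, TCTN2, BBS10, IFT81 and GLI1 at 0.75, 0.51, 0.41, 0.24 and 0.28 in the authors' deposited table. The medians of their 20 nearest measured genes were 0.54, 0.49, 0.53, 0.56 and 0.54. TCTN1 thus lay above its neighbourhood, TCTN2 with it, and BBS10, IFT81 and GLI1 below it. Of the 36 members elsewhere, 11 (30.6%) passed in the knockout, 4 up and 7 down. The 53.6% of all usable genes includes those on chromosome 12, so it is not a matched background for these 36. B9D2 and GLI3, on chromosomes 19 and 7, had neighbour medians of 0.02 and -0.06. In clone 2 the fall of IFT80 lay within a stretch of chromosome 3 with a neighbour median of -0.73, and IFT140 and BBS1 had neighbour medians of 0.35 and 0.24. Over all genes in clone 2, the 5th and 95th percentiles of the neighbour median were -0.23 and 0.26. GLI3, IFT122 and TCTN1 in that clone had neighbour medians of 0.02, 0.00 and -0.03, and DYNC2H1 rose where its neighbours stood at -0.27. With the neighbour median subtracted, TCTN2, TCTN3, ARL3 and SMO in the knockout, IFT20, IFT74, IFT122 and BBS1 in clone 1, and BBS10, B9D2 and NPHP4 in clone 2 no longer passed. The values left were 0.01, 0.03, -0.06 and -0.02 in the knockout and -0.04, 0.19 and 0.03 in clone 2. In clone 1 they were 0.23, -0.22, -0.12 and 0.18, so IFT20, IFT74 and BBS1 lost little of their size and only crossed the threshold. IFT81 and BBS10 in the knockout and IFT80 in clone 2 still passed but with the opposite sign, at -0.32, -0.12 and 0.19. Conversely BBS2, BBS4, BBS5 and GLI2 in the knockout, and IFT88, TCTN3, MKS1, TMEM67 and KIF3B in clone 2, passed after the subtraction and not before it. What sets the level of a whole neighbourhood was not tested.

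**Figure D2:**
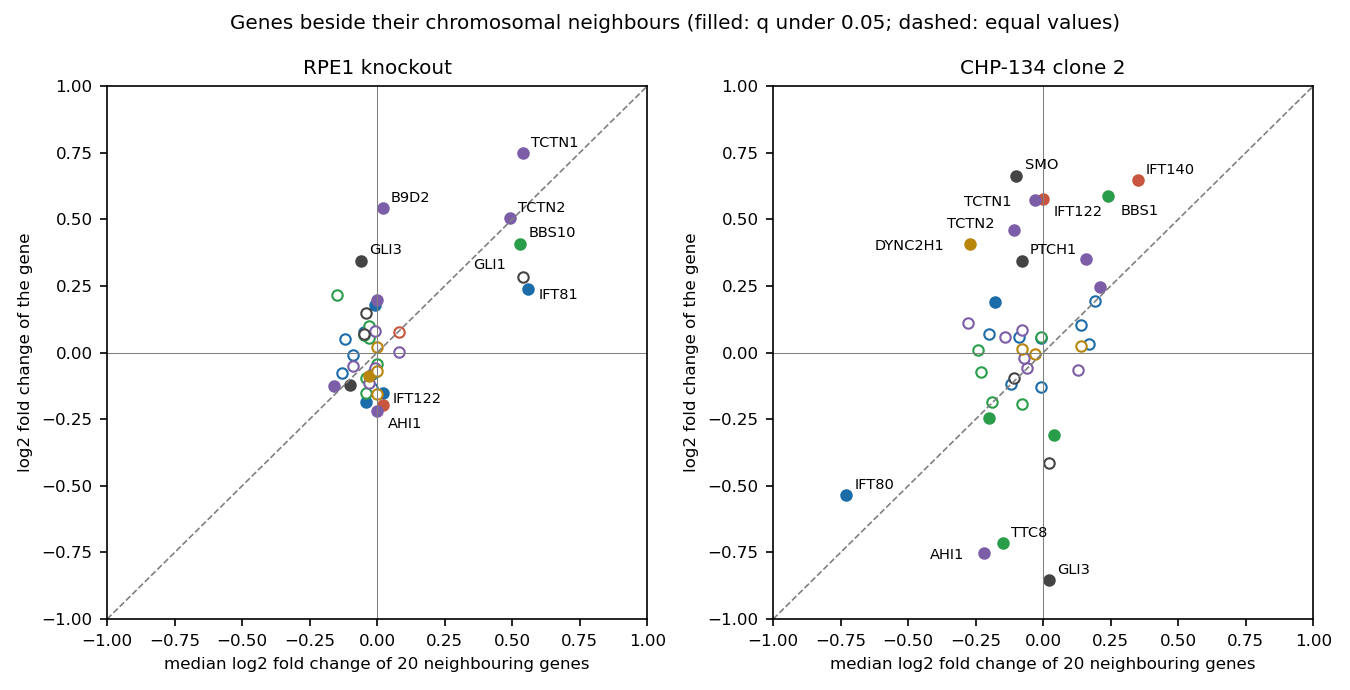
Log2 fold change of each of the 41 genes (vertical axis) against the median log2 fold change of its 20 nearest measured genes (horizontal axis), in the RPE1 knockout (left) and CHP-134 clone 2 (right), with colours by role as in the plot of the loss comparisons. The 5 chromosome 12 genes form the right-hand group of the left panel at neighbour medians of 0.49 to 0.56, and IFT80 stands alone at -0.73 in the right panel.

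Of the 5 hedgehog genes, GLI3 and SMO passed with opposite signs in the RPE1 knockout and in CHP-134 clone 2, PTCH1 passed in clone 2 alone of the loss comparisons, and GLI1 and GLI2 passed in none. GLI3, the main repressor-forming GLI factor, rose by 0.34 (SE 0.0554, q = 2.46e-09) in the RPE1 knockout and fell by 0.85 (SE 0.0883, q = 1.55e-20) in CHP-134 clone 2 in the authors' deposited tables. SMO, the signal transducer, fell by 0.12 (SE 0.0419, q = 0.0085) in the knockout and rose by 0.66 (SE 0.0847, q = 1.08e-13) in clone 2, per the authors' deposited tables. PTCH1, both the receptor and a target, rose by 0.34 (SE 0.065, q = 1.02e-06) in clone 2 and was at 0.07 (q = 0.564) in the knockout in the authors' deposited tables. In clone 1 GLI3, SMO and PTCH1 were at -0.08, -0.20 and -0.15, and none passed in the authors' deposited table. GLI1, the usual readout of pathway activity, did not pass: 0.28 (q = 0.0502, mean count 115) in the knockout, -0.63 (q = 0.101, mean count 18.4) in clone 1 and -0.41 (q = 0.253, mean count 22.4) in clone 2, per the authors' deposited tables. The knockout value lay at the threshold, since q adjusted again was 0.0464 over genes with mean counts from 100 up and 0.0493 with Outlier genes kept. With its neighbour median subtracted it was -0.25 (q = 0.0797).

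Other hedgehog genes were read from lists of 25 ligand, receptor and regulator genes and 14 targets. The ligand genes SHH, IHH and DHH were at most 0.0617 CPM in every table. Of the regulators, 18 were usable in the knockout (8 up, 3 down), 17 in clone 1 (0 up, 1 down) and 17 in clone 2 (8 up, 4 down). Their 11, 1 and 12 calls stand beside 53.6%, 18.7% and 46.2% of all usable genes. Of the targets, 10 were usable in the knockout (5 up, 2 down), 6 in clone 1 (1 up, 0 down), 6 in clone 2 (2 up, 1 down), 7 in TetOn clone 4 (0 up, 2 down) and 8 in TetOn clone 5 (0 up, 4 down). The shares of all usable genes called in these 5 comparisons were 53.6%, 18.7%, 46.2%, 1.95% and 2.97%, and no test of the lists was made. HHIP, a ligand-binding inhibitor and textbook target, rose by 0.56 (SE 0.0322, q printed as 0) in the RPE1 knockout at a mean count of 3460 in the authors' deposited table. With doxycycline HHIP fell by 0.37 (SE 0.0493, q = 2.04e-11) in TetOn clone 4 and by 0.52 (SE 0.0388, q = 3.75e-38) in TetOn clone 5, per the authors' deposited tables. In CHP-134 its mean counts were 30 and 26.3, with values of -0.10 (q = 0.827) and -0.64 (q = 0.0466) for clones 1 and 2 in the authors' deposited tables, quoted after the values were seen. SFRP1, which encodes a secreted Wnt antagonist, rose by 0.77 ± 0.0206 (SE) in the knockout, per the authors' deposited table. SFRP1 fell by 0.24 ± 0.0366 and 0.22 ± 0.0279 in TetOn clones 4 and 5, from the authors' deposited tables, the clone 5 value quoted after the values were seen. FOXC2 changed more than SFRP1 in TetOn clone 5, where it fell by 0.30 (SE 0.0648, q = 0.000227) in the authors' deposited table. BMP4 fell in the knockout (-0.30, SE 0.0336) and in TetOn clone 5 (-0.32, SE 0.0476) in the authors' deposited tables, so the targets did not move as 1 group. CCND1, the cyclin D1 gene, rose by 0.69 (SE 0.0742) and 0.76 (SE 0.075) in CHP-134 clones 1 and 2 in the authors' deposited tables. GPR161, a ciliary inhibitor of the pathway, rose by 0.32 (SE 0.0312) in the knockout and 0.56 (SE 0.0844) in clone 2, per the authors' deposited tables.

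**Figure D3:**
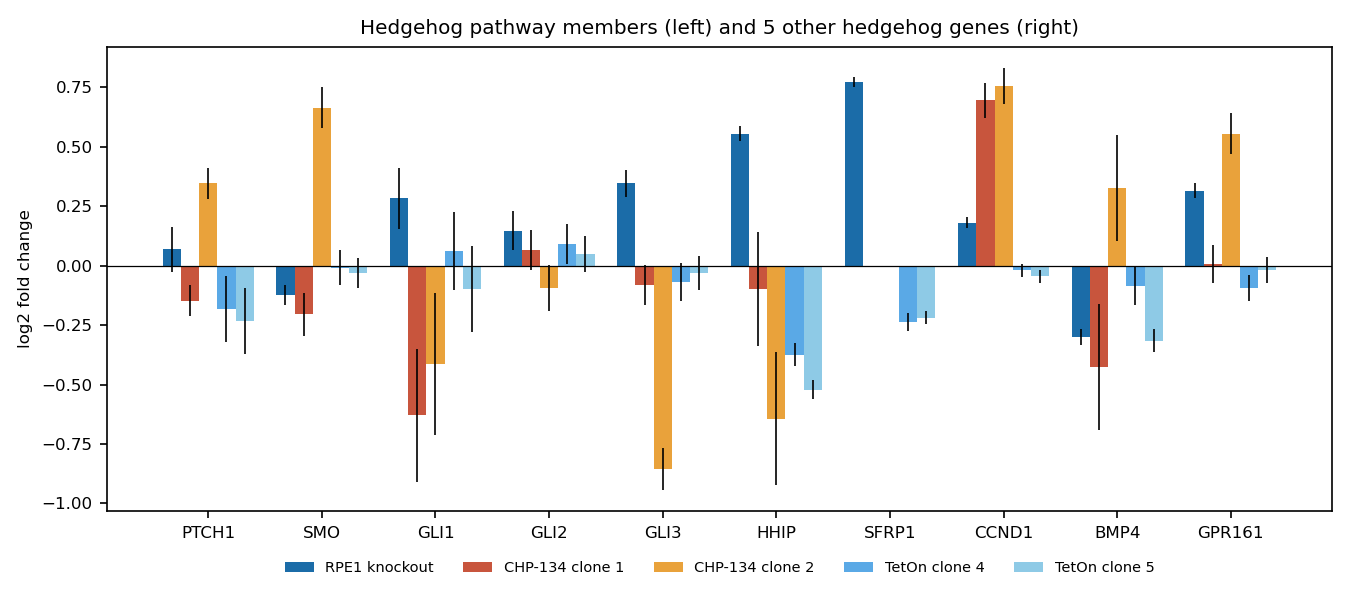
Log2 fold change (bars from 0) with 1 SE (lines) of the 5 hedgehog members and of HHIP, SFRP1, CCND1, BMP4 and GPR161 in the 5 comparisons, from the authors' deposited tables. HHIP and SFRP1 are positive in the RPE1 knockout and negative in both TetOn clones, and SFRP1 has no bar in CHP-134 because the authors gave it the status Outlier there.

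Whether the CHP-134 clones differed was tested for each gene by subtracting its log2 fold changes and dividing by the combined SE, with adjustment over 12579 genes. The clones share their wild type libraries, which makes this SE too large. Of the 41 genes, 11 differed (20.5% of all genes did), 7 with a higher and 4 with a lower log2 fold change in clone 2. SMO differed by 0.87 (95% interval 0.63 to 1.11, q = 8.92e-11), IFT122 by 0.76 (0.59 to 0.93, q = 9.29e-16) and PTCH1 by 0.49 (0.31 to 0.67, q = 1.87e-06). AHI1 differed by -0.77 (-0.96 to -0.59, q = 1.92e-14) and GLI3 by -0.77 (-1.01 to -0.53, q = 6.18e-09). TTC8, which fell in both clones, also differed, by -0.41 (-0.58 to -0.23, q = 6.34e-05), whereas BBS4 was not among the 11. Among motor genes DYNC2H1 differed by 0.61 (0.30 to 0.92, q = 0.00113). After rescaling to the central spread, 5 members passed, again with no share of all genes beside them.

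Between cell lines, the RPE1 knockout and CHP-134 clone 1 differed in 11 of the 41 genes, beside 34.1% of 11194 genes. The knockout and clone 2 differed in 15, beside 46.5% of 11160 genes. All values that follow are differences of log2 fold changes, not of levels. The widest gap was that of GLI3, 1.20 higher in the knockout than in clone 2 (95% interval 1.00 to 1.40, q = 4.65e-29). SMO was lower by 0.79 (q = 1.44e-15) and IFT122 lower by 0.77 (q = 1.46e-21) in the knockout than in clone 2. BBS4 was 0.40 and 0.41 higher in the knockout than in clones 1 and 2, with q = 2.72e-05 and 7.48e-06, and TTC8 0.23 and 0.64 higher. TCTN1 was 0.67 higher than in clone 1 (q = 2.16e-08) and was not among the 15 that differed from clone 2. With rescaling, 0 and 2 members passed for clones 1 and 2.

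After 24 h of doxycycline, which raised TRIM37, none of the 41 genes passed the threshold. By the authors' DESeq2 q, 0 passed in TetOn clone 4 (1.95% of 12153 genes did) and 0 in TetOn clone 5 (2.97% of 12195). At an unadjusted p under 0.05, 1 gene passed in clone 4 and 0 in clone 5, beside 10.1% and 10.7% of all genes. That gene, BBS2, was at -0.13 (SE 0.059, q = 0.415) in clone 4 and -0.00495 in clone 5 in the authors' deposited tables. Values ranged from -0.18 to 0.13 in clone 4 and from -0.23 to 0.13 in clone 5 in the authors' deposited tables. PTCH1 was the lowest in both, with -0.18 ± 0.138 (SE) and -0.23 ± 0.137, per the authors' deposited tables. Its 95% intervals, -0.45 to 0.09 and -0.50 to 0.04, reach down to a change of -29.4% in clone 5. Those of SMO were -0.15 to 0.14 and -0.15 to 0.09. No member differed between the TetOn clones at a q under 0.05 (smallest q = 0.903, 0 at an unadjusted p under 0.05), beside 0.221% of 11778 genes.

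**Figure D4:**
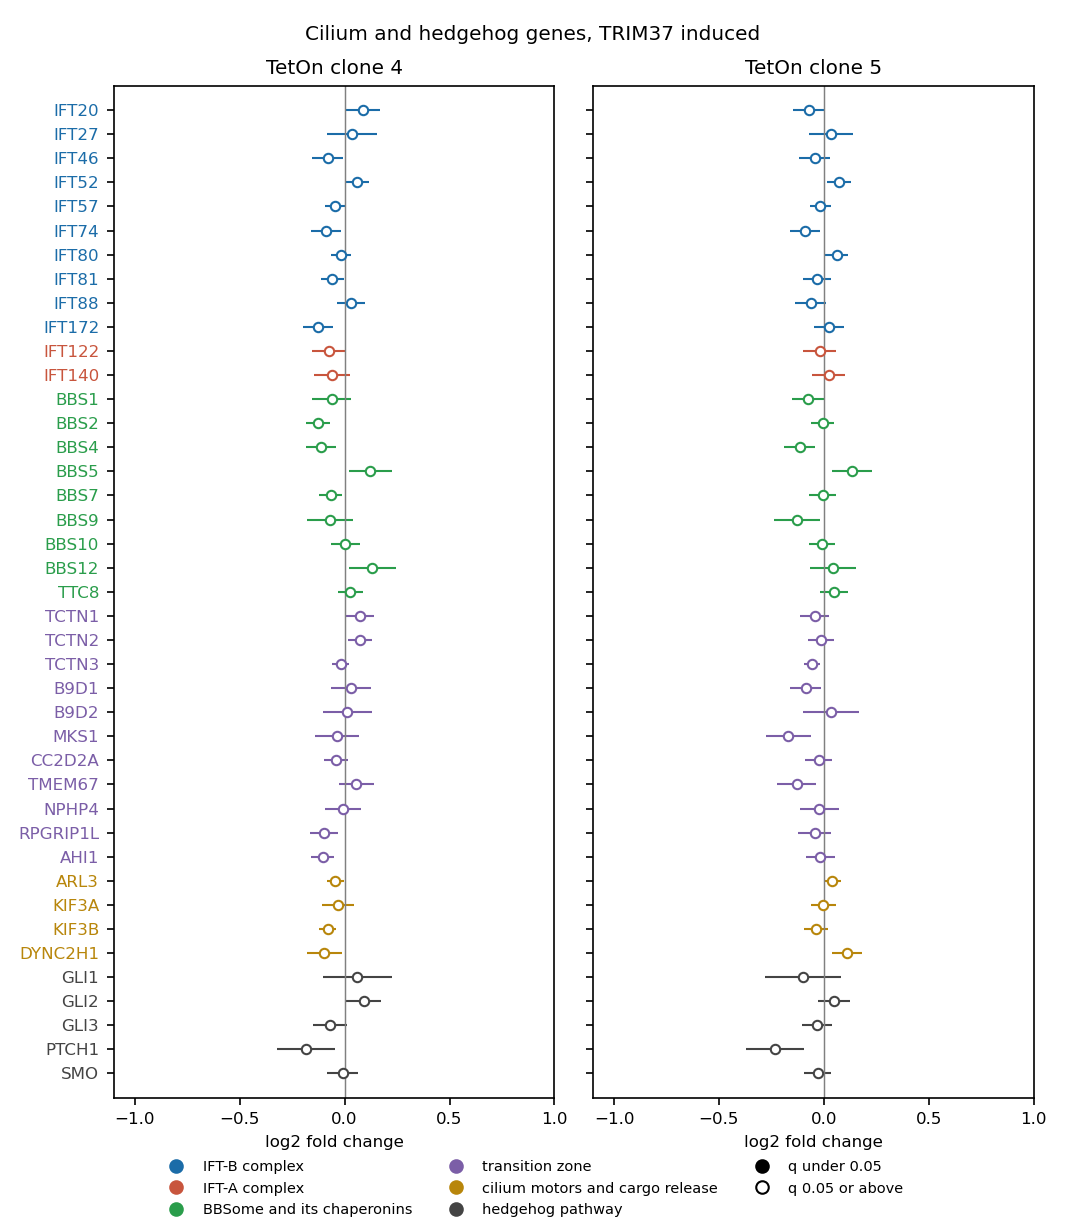
Log2 fold change (points) with 1 SE (bars) of the 41 genes after induction of TRIM37 in TetOn clones 4 and 5, from the authors' deposited tables, on the same axis range as the loss comparisons. All points are open (q of 0.05 or above) and lie between -0.23 and 0.13.

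Other ciliary genes were read from lists that hold none of the 41, and their counts stand beside 53.6%, 18.7% and 46.2% of all usable genes called in the knockout, clone 1 and clone 2. Of 11 further intraflagellar transport genes, 4 passed in the knockout (1 up, 3 down), 3 in clone 1 (all down) and 5 of 10 usable in clone 2 (4 up, 1 down). TTC30B, an IFT-B subunit, fell by 0.96 (SE 0.133) in clone 1 and rose by 0.32 (SE 0.135) in clone 2, per the authors' deposited tables. TTC30B and TTC30A are close copies, and how reads were split between them is not stated. Among 5 BBSome-associated genes LZTFL1 (-0.38, SE 0.0771) and BBIP1 (-0.32, SE 0.0447) fell and MKKS rose (0.24, SE 0.0433) in the knockout in the authors' deposited table. Of 17 basal body and initiation genes, 5 of 16 usable passed in the knockout, 3 of 17 in clone 1 and 11 of 17 in clone 2 (3 up, 8 down). EHD1, which acts in ciliary vesicle formation, rose by 0.67 (SE 0.114) and 0.61 (SE 0.124) in clones 1 and 2 in the authors' deposited tables. Of 7 cilium disassembly genes, 3 passed upward and 2 downward in the knockout, and 2 did not pass. In clone 1 the calls were 0 up and 2 down, and in clone 2 they were 3 up and 1 down. NEDD9, a scaffold that activates Aurora A in cilium disassembly, fell by 1.73 (SE 0.0639) in the RPE1 knockout in the authors' deposited table. Of the RFX factor genes, RFX1 rose by 0.75 (SE 0.156) in clone 2 and RFX2 by 0.42 (SE 0.129, q = 0.0407) in TetOn clone 5, per the authors' deposited tables. CEP97, whose product caps the mother centriole and restrains cilium formation, rose by 0.33 (SE 0.0621, q = 1.72e-05) in TetOn clone 5 in the authors' deposited table. RFX2 was the 1 call among 5 usable RFX and FOXJ1 genes there, and CEP97 the 1 among 17 basal body genes. In TetOn clone 4, 0 of these 5 and 0 of these 17 passed. The shares of all usable genes called were 2.97% in TetOn clone 5 and 1.95% in TetOn clone 4.

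The level of each gene was also set across tables as its CPM. How the mean counts were scaled in each table is not stated, and they cover both groups compared, so no test was made. CHP-134 lay above all 3 RPE1 tables for 18 members and below them for 18, with 5 overlapping. Over 10284 genes usable in all 5 tables, 49.3% lay above and 36.5% below. PTCH1 stood at 57.6 and 69.2 CPM in the CHP-134 tables and between 3.52 and 6.23 in the RPE1 tables, a 13.4-fold ratio of the means. TTC8 (148 to 166 beside 23.6 to 27.2), MKS1 (44.8 to 48.7 beside 7.61 to 10.8) and GLI3 (72.1 to 90.4 beside 19.5 to 24.6) were also higher on the CPM scale in CHP-134. TCTN2 (4.76 to 6.01 beside 29.2 to 34.7), TCTN3 (23.4 to 24.7 beside 115 to 134) and DYNC2H1 (12.3 to 15.5 beside 42.8 to 58.7) were lower. GLI1 was at 0.635 and 0.728 CPM in CHP-134 and between 1.51 and 3.14 in RPE1, so the receptor and the transcription factor, both targets of the pathway, differed between the lines in opposite directions.

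**Figure D5:**
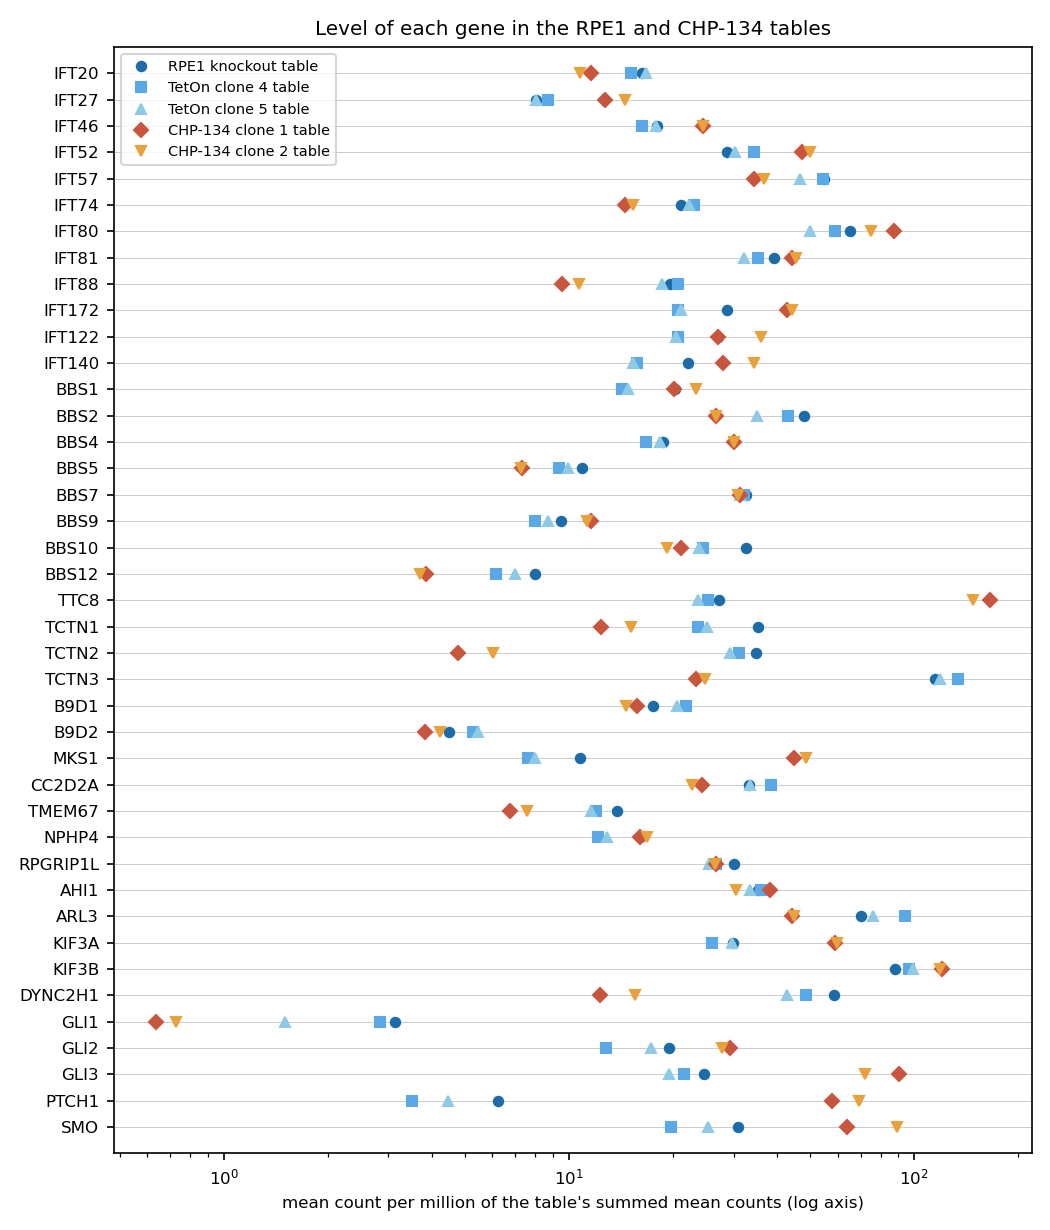
CPM, the mean count per 1000000 of the table's summed mean counts (log axis), of the 41 genes, 1 point per table, with RPE1 tables in blue and CHP-134 tables in red and orange. PTCH1 and TTC8 lie far to the right in CHP-134 and TCTN2, TCTN3 and GLI1 to the left, while 6 genes in all (14.6%, beside 20.1% of all genes) are at least 2-fold higher and 5 (12.2%, beside 18.7%) at least 2-fold lower in CHP-134.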

How the data were processed

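The authors sequenced RNA from 39 libraries, and per the submitters' processing notes ran STAR and DESeq2 (versions, build, annotation, strand setting and counting rule: not given in the sources used here). Each of the 5 deposited tables holds, per the file headers, for every gene a status, a mean count, a log2 fold change with its standard error, and a q value, an adjusted p-value. Genes with the status Low (mean count of at most 10) or Outlier have a q of 1, and the rest are usable. The plan allowed for counts per library; the files held none, so the deposited q under 0.05 is the call.

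Differences between comparisons used a two-sided normal p, adjusted by Benjamini-Hochberg over genes usable in both tables, and were tested on simulated data. The simulated noise was normal and independent between comparisons. It therefore covers neither the wild type shared by the CHP-134 clones nor the wider spread of the real statistics. The members, lists and tests were chosen with earlier results of these data known. All 41 members are accounted for. From each list, up to 3 called genes per comparison with the largest change and a mean count of at least 50 could be named; those printed were picked from these after their values were seen.

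Gene order came from RefSeq (GRCh38.p14) by symbol. Neighbour medians covered the 10 nearest usable genes on each side with mean counts from 100 up. Alternatives were 7 planned and 1 added after seeing the data. Scripts used Python 3.11.15, numpy 2.4.6, pandas 2.3.3 and scipy 1.17.1.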

Additional observations from a re-analysis of the deposited data

Results flagged for a closer look

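A tested difference between comparisons, of the log2 fold change at a q under 0.05, was found for these members. CHP-134 clone 2 minus clone 1 gave SMO 0.87, IFT122 0.76, DYNC2H1 0.61, IFT140 0.52, TCTN1 0.49, PTCH1 0.49, BBS1 0.36, TTC8 -0.41, IFT80 -0.50, AHI1 -0.77 and GLI3 -0.77. The RPE1 knockout minus CHP-134 clone 1 gave GLI1 0.91, TCTN1 0.67, TCTN2 0.62, GLI3 0.43, BBS4 0.40, BBS10 0.37, MKS1 0.35, IFT81 0.26, TTC8 0.23, AHI1 -0.24 and IFT20 -0.37. The RPE1 knockout minus CHP-134 clone 2 gave GLI3 1.20, BBS10 0.65, TTC8 0.64, AHI1 0.53, BBS4 0.41, IFT80 0.38, IFT52 -0.18, TCTN3 -0.18, PTCH1 -0.28, NPHP4 -0.30, BBS1 -0.53, DYNC2H1 -0.56, IFT140 -0.57, IFT122 -0.77 and SMO -0.79. GLI1 differed at a mean count of 18.4 in clone 1 without passing in either comparison alone. IFT80 in clone 2 lies among neighbours with a median of -0.73, and TCTN1, TCTN2, BBS10, IFT81 and GLI1 in the knockout lie on chromosome 12, with a median of 0.51.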

How the results depend on the processing

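The count of members that passed in the knockout was 15, and 1 at a change of at least 1.5-fold and 2 with the null widened to the statistics' central spread (3.64 times that of a normal null; called rescaled). In CHP-134 clone 1 it was 6, and 2 at a q under 0.01, 0 at 1.5-fold, 0 rescaled and 2 (BBS4 and TTC8) with the neighbour median subtracted. Clone 2 had 17, and 6 at 1.5-fold and 2 rescaled. Differences numbered 11, 11 and 15 for clone 2 against clone 1 and for the knockout against clones 1 and 2, and 5, 0 and 2 rescaled; the knockout against clone 1 had 7 with neighbour medians subtracted. Other settings stayed within 1.5 times of these counts. No share of all genes is given for the counts under any changed setting. A drop from the main count is therefore not read as a trait of these genes. Subtracting the chromosome or the neighbour median reversed IFT81 (-0.27, -0.32), BBS10 (-0.10, -0.12) and CCDC41, a basal body gene listed beside the members (-0.09, -0.20), in the knockout. The chromosome median reversed TCTN2 (-0.01) and ARL3 (0.0006), and the neighbour median TCTN3 (0.03), there. In clone 2 the neighbour median reversed IFT80 (0.19), KIF3B (-0.11) and the basal body gene CEP19 (0.03). These subtractions are constructed from genes at the same place, and no further cause was tested. No paired analysis was possible because the tables hold no value per library, and leaving out single libraries was not run for the same reason. Depth per library is unknown, so GLI1, with mean counts of 18.4 to 115, is the least precise member.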
